A study of Mus musculus with 9 samples.

Results

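Blood vessel genes were followed in bulk RNA of the aPVT, the anterior paraventricular thalamic nucleus near the brain's midline, from BALB/c mice. The set was a list of 35 genes by name, 21 endothelial and 14 mural or perivascular, and 34 of them are among the 18956 genes of the count table. The 35th, Anpep, an aminopeptidase of pericytes, was not analysed here. The 9 libraries formed 3 groups of 3: mice without stress given saline (non-stressed saline), mice after 5 days of social defeat given saline (stressed saline), and mice after the same defeat given (2S,6S)-HNK, a ketamine metabolite, called SHNK here (stressed SHNK). Social defeat places a mouse with an aggressor. All groups share the strain, no labelled group received SHNK without stress, and the labels give neither the age, sex nor number of animals. They do not say whether libraries came from separate mice, so the p-values below measure only the spread between these libraries, which may be technical.

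Brain capillaries are tubes of endothelial cells sealed by tight junctions, which makes them the blood-brain barrier. Such cells carry their own transporters for glucose, lipids, hormones and drugs, and depend on signals through vascular endothelial growth factor (VEGF) and angiopoietin receptors. Pericytes share a basement membrane with the endothelium and are drawn to it by platelet-derived growth factor, smooth muscle cells wrap arterioles, and fibroblasts lie around larger vessels and in the meninges. In bulk tissue, fewer cells of a type and less RNA per cell cannot be told apart.

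The promoter sequences of 3 genes are shown because these genes carry the results below: the claudin whose level fell with SHNK, the mural receptor with the smallest p among the mural genes in that comparison, and the barrier transporter with the steadiest level. Each is the 250 bases before a transcript start in RefSeq (GRCm38.p6), read 5′ to 3′ in the direction of the gene. For Notch3 that start lies inside the outer end of the annotated gene, so the last 6 bases shown are within it. They lie at chr16:18776597-18776846 (plus strand) for Cldn5, chr17:32166891-32167140 (minus strand) for Notch3 and chr6:141524104-141524353 (plus strand) for Slco1c1. Capitals mark matches, on either strand, to the CCAAT box (its letters are CCAAT), the GC box (letters GGGCGG), the core of ETS factor sites (letters AGGAAG) or the TATA box (letters TATAAA).
Cldn5: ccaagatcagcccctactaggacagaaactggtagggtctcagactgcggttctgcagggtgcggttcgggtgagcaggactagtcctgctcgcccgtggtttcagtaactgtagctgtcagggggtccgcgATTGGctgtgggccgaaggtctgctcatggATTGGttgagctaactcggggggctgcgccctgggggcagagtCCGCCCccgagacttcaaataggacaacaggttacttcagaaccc
Notch3: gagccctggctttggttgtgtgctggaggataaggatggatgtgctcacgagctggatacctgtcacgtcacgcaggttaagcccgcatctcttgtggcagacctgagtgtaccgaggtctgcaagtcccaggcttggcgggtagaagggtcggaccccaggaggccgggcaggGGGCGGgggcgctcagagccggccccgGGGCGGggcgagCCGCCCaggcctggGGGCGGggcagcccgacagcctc
Slco1c1: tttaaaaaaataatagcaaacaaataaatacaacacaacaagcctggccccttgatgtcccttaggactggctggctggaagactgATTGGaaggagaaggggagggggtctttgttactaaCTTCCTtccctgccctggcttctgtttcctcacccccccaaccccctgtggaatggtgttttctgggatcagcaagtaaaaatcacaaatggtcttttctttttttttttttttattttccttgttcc
The Cldn5 window held 2 CCAAT matches, which began 118 and 88 bases before the start, and 1 GC box at 45 bases. The Notch3 window held 4 GC boxes, at 76, 49, 37 and 23 bases, and none of the other motifs. The Slco1c1 window held 1 CCAAT match at 164 bases and 1 ETS core at 128 bases. In 32851 mouse promoter windows of the same length, the CCAAT box occurred in 33.8%, the GC box in 32.7%, the ETS core in 29.5% and the TATA box in 12.4%. The 24 vessel genes matched to a promoter have 30 such windows, of which 8 held the CCAAT box, 11 the GC box, 15 the ETS core and 4 the TATA box. The GC content of the windows was 59.6% for Cldn5, 68.8% for Notch3 and 42.8% for Slco1c1.

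Total counts ran from 32307869 to 51569143 per library, and all 34 listed vessel genes passed the filter on low counts. The lowest count of a vessel gene in any library was 12, for Col1a1. Levels are CPM, counts scaled to a common library size after TMM normalization, and differences are log2 fold changes ± SE from edgeR's quasi-likelihood test with Benjamini-Hochberg adjustment over 18194 genes. Intervals of differences are 95%, and a gene is called at an adjusted p under 0.05. The defining markers were present in every library: Cldn5 between 34.7 and 60.8 CPM, Pecam1 between 3.88 and 6.55 CPM and Pdgfrb between 7.22 and 12.8 CPM. The aPVT label stands beside markers of its neighbour, the habenula, whose 12 tested genes summed to 112 to 170 CPM in non-stressed saline, 284 to 819 CPM in stressed saline and 78.1 to 95.2 CPM in stressed SHNK. Their part in the vessel results was not tested.

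Scaled by the merged length of a gene's exons, the most abundant vessel gene was Itm2a, an integral membrane protein of brain endothelium. Its mean over the 9 libraries was 97.0 RPKM (reads per kilobase of exon, scaled to library size as CPM are). Vtn (vitronectin, secreted by pericytes) followed at 47.4 RPKM, Slc2a1 (the glucose transporter GLUT1) at 43.3, Ly6c1 (a surface protein of capillary endothelium) at 36.1, Cldn5 at 33.7 and Egfl7 (a secreted endothelial protein) at 31.5 RPKM. Between 5 and 25 RPKM lay Myl9 (23.2), Esam (13.8), Mfsd2a (13.3), Slco1c1 (12.2), Rgs5 (11), Slco1a4 (7.99) and Cald1 (5.16). The signalling receptors were far lower, with Flt1 at 2.10, Pdgfrb at 1.80, Tek at 1.19, Tie1 at 0.849, Kdr at 0.776 and Notch3 at 0.428 RPKM. The lowest level was that of Col1a1, a chain of type I collagen, at 0.109 RPKM, and Cdh5, the endothelial cadherin, was next at 0.219 RPKM. Endothelial genes varied between libraries of a group by a median SD of 12% of the mean, close to the 12.7% of all tested genes, and mural genes by 22.6%. Slco1c1 had the smallest SD of the set, 2.73% of its mean, and Tagln the largest, 63.6%.

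**Figure D1:**
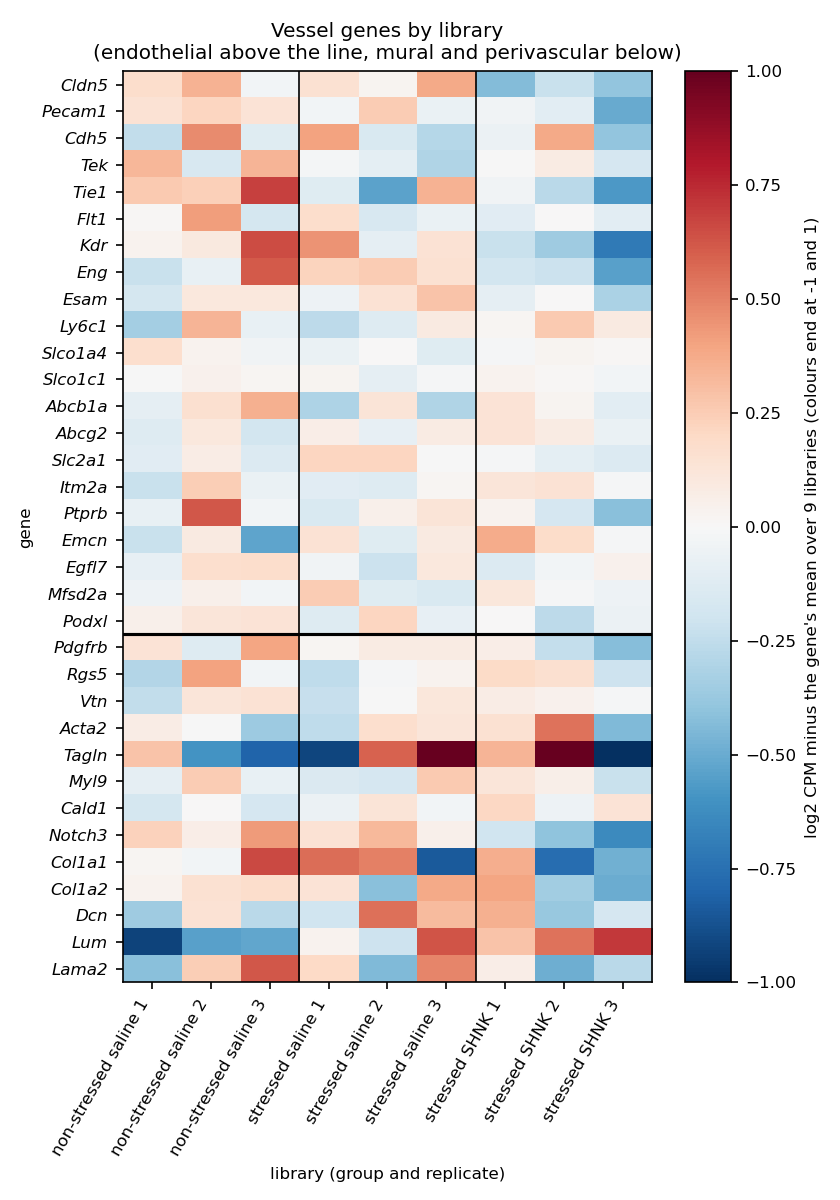
Level of each of the 34 vessel genes (rows) in each of the 9 libraries (columns, grouped by condition) as log2 CPM minus the gene's mean; red is above and blue below the mean, and colours end at -1 and 1. Cldn5, Kdr and Notch3 are blue in all 3 stressed SHNK libraries, Slco1c1 is nearly colourless throughout, and stressed SHNK replicate 3 is the lowest library for 14 of the 34 genes.

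The summed level of each class overlapped between the groups. The 21 endothelial genes summed to 640, 780 and 676 CPM in non-stressed saline, 697, 677 and 709 CPM in stressed saline and 684, 696 and 647 CPM in stressed SHNK. The 13 mural genes summed to 196, 252 and 229 CPM, then 198, 227 and 244 CPM, then 246, 232 and 206 CPM in the same order. No group stood apart in either class. The endothelial sum is weighted to abundant genes, with Itm2a making up 24.5% of it, and Vtn made up 36.6% of the mural sum.

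Social defeat with saline, set against no stress with saline, asks what the stress alone did to the vessel genes. No vessel gene was called in this comparison by edgeR, DESeq2 or limma voom, where edgeR called 213 of all 18194 genes (1.17%), DESeq2 2.65% and limma voom 0.561%. At an unadjusted p under 0.05, edgeR gave 2 of 34 vessel genes, Slc2a1 and Lum, both higher. Over all genes, 9.45% passed in either direction, and 1106 of 18194 higher. The 3 stressed libraries lay outside the range of the 3 non-stressed ones for 1 of 34, Lum, against 12.9% of all genes. The median log2 difference was -0.092 over the endothelial and -0.040 over the mural genes, beside -0.017 over all tested genes. Without non-stressed saline replicate 2, the endothelial median was 0.045. The mural median lay between -0.095 and 0.079 with 1 library left out, above 0 without replicate 2 or 3 of the non-stressed or replicate 1 or 2 of the stressed saline group.

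Cldn5 did not differ between these groups within an interval of -0.23 to 0.27 (log2 difference 0.020 ± 0.115). The angiopoietin receptor Tek had a log2 difference of -0.32 ± 0.17 (adjusted p = 0.626) and its partner Tie1 one of -0.48 ± 0.24 (adjusted p = 0.578). Slc2a1 stood at 130, 148 and 128 CPM in non-stressed saline and 163, 163 and 140 CPM in stressed saline. The lowest stressed library lay below the highest non-stressed one, and the difference of 0.20 ± 0.088 had an adjusted p of 0.504. Lum (lumican, a small proteoglycan of fibroblasts) stood at 0.482, 0.626 and 0.638 CPM against 0.934, 0.792 and 1.41 CPM, which were 20 to 26 against 37 to 50 counts. All 3 stressed libraries were above the others, with a log2 difference of 0.84 ± 0.31 and an adjusted p of 0.322.

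**Figure D2:**
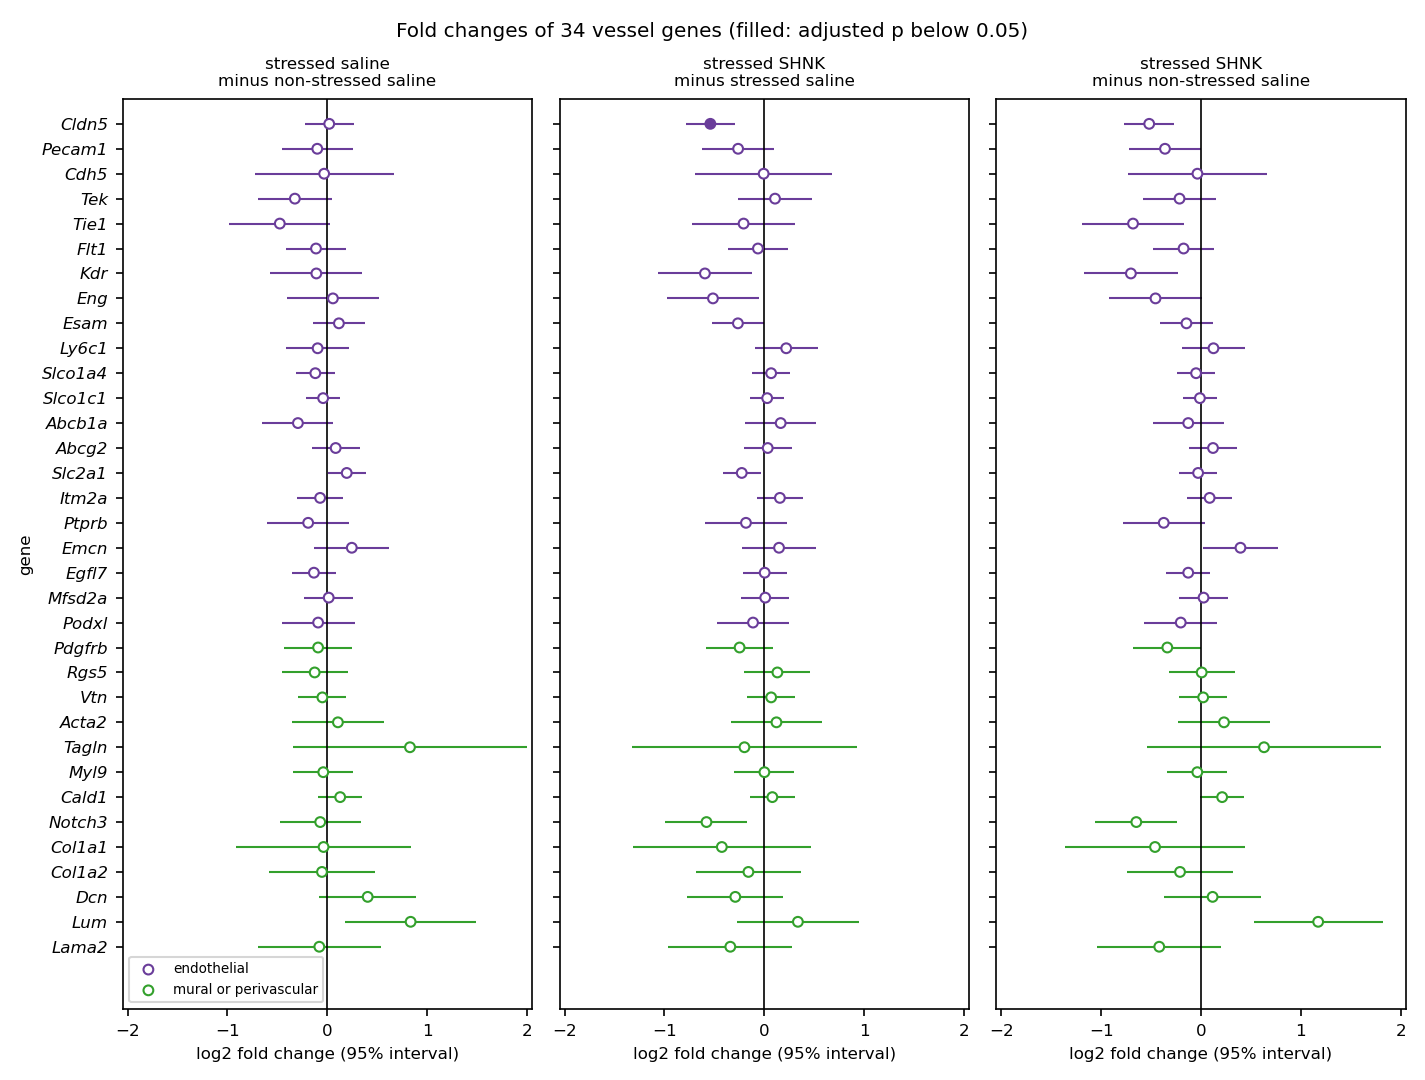
Log2 fold change (x axis) with 95% interval (lines) of the 34 vessel genes (y axis) in the 3 comparisons; purple is endothelial, green mural or perivascular, and a filled point has an adjusted p below 0.05. The single filled point is Cldn5 in stressed SHNK minus stressed saline, at -0.54.

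Stressed SHNK against stressed saline asks what the metabolite did in stressed mice. Of the 21 endothelial genes, 1 was called, Cldn5, which fell by 31.2%, and 0 of the 13 mural genes was called by edgeR. Over all tested genes, 1167 were called (6.41%), and 721 were called lower (3.96%), so the 1 of 34 is no larger a share than among genes at large. At an unadjusted p under 0.05, edgeR gave 6 of 34 vessel genes, all lower. Over all genes, 23.3% passed in either direction and 12.8% lower. The 6 were Cldn5, Kdr, Eng, Esam and Slc2a1 of the endothelium and Notch3 of the mural cells. The SHNK libraries lay outside the range of the stressed saline libraries for 5 of 34, all lower. Over all genes this held for 30.4% in either direction, and for 2900 of 18194 lower. DESeq2 and limma voom each called 2 vessel genes, Cldn5 and Notch3, both lower. These tools called a larger share of all genes, 12.8% and 13.1%, and 7.18% and 7.68% lower. Col1a1 got no adjusted p from DESeq2 here. The median log2 difference was -0.0049 over the endothelial and -0.16 over the mural genes, beside -0.0091 over all tested genes. The endothelial median was 0.0017 by DESeq2, and the mural one was 0.020 by limma voom, 0.064 without stressed SHNK replicate 3 and 0.062 without stressed saline replicate 3.

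Cldn5 encodes claudin-5, the main strand-forming protein of the tight junction in brain endothelium. It is a gene of 1 exon at chromosome 16, 18776847 to 18778262 (GRCm38, plus strand). Its level was 53.0, 59.6 and 45.9 CPM in non-stressed saline, 52.2, 47.7 and 60.8 CPM in stressed saline and 34.7, 40.1 and 35.7 CPM in stressed SHNK. The 3 SHNK libraries were the 3 lowest of the 9, with no overlap, from 1316 to 2015 counts each. Against stressed saline, Cldn5 fell by 0.54 ± 0.115 on the log2 scale (interval -0.79 to -0.29, adjusted p = 0.0166). When edgeR tested the 3 groups together, Cldn5 was the only vessel gene called (adjusted p = 0.0241), where 4.88% of all genes were. The call was lost without stressed saline replicate 3 (log2 difference -0.44, adjusted p = 0.0565), without stressed SHNK replicate 3 (-0.52, adjusted p = 0.0909) and after removal of a trend on transcript length and GC content (-0.37, adjusted p = 0.0681).

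The other junction genes did not pass. Pecam1 (PECAM-1, an adhesion molecule at endothelial contacts) stood at 6.07, 6.39 and 6.04 CPM, then 5.41, 6.55 and 5.27 CPM, then 5.36, 5.11 and 3.88 CPM across the 3 groups in the same order. The SHNK and stressed saline ranges overlapped, with a log2 difference of -0.26 ± 0.17 (adjusted p = 0.376). Esam, an adhesion molecule of endothelial tight junctions, had a mean of 23.4 CPM with SHNK and 28.1 CPM in stressed saline, a difference of -0.26 ± 0.12 (adjusted p = 0.211). For Cdh5 the means were 0.862 and 0.867 CPM from 24 to 56 counts, and the interval of the difference was wide, -0.69 to 0.68.

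Among the receptors, Kdr had the log2 difference farthest below 0. Kdr is VEGF receptor 2, the main signalling receptor for VEGF in endothelium. It stood at 4.54, 4.76 and 6.99 CPM in non-stressed saline, 6.05, 4.16 and 4.90 CPM in stressed saline and 3.81, 3.46 and 2.72 CPM with SHNK. The SHNK libraries were the 3 lowest, yet the difference from stressed saline of -0.59 ± 0.22 (interval -1.06 to -0.13) had an adjusted p of 0.118. Flt1, VEGF receptor 1, which binds VEGF and signals weakly, averaged 21.8 CPM with SHNK against 22.8 CPM, a difference of -0.062 ± 0.14. Endoglin (Eng), a co-receptor for ligands of the TGF-beta family, averaged 3.52 against 5.04 CPM with no overlap, a difference of -0.51 ± 0.22 (adjusted p = 0.17). Tek, Tie1 and Ptprb (an endothelial phosphatase that acts on Tek) had differences of 0.11, -0.21 and -0.18, each with an interval that spans 0.

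No transporter was called by edgeR, DESeq2 or limma voom (0 of 6, with 1 at an unadjusted p under 0.05). Over all genes, these tools called 6.41%, 12.8% and 13.1%, and 23.3% had an unadjusted p under 0.05 by edgeR. Counts out of 6 do not set the transporters apart from these shares. Slco1c1, which carries thyroxine into the brain, stood at 40.0, 41.2 and 40.6 CPM, 40.8, 37.7 and 39.7 CPM, and 41.1, 40.4 and 39.3 CPM in the 3 groups. Its interval for SHNK against stressed saline, -0.14 to 0.20, is the narrowest of the 34 in that comparison. Slco1a4 (an organic anion transporter), Abcb1a (P-glycoprotein), Abcg2 (the second main drug efflux pump) and Mfsd2a (the lipid transporter that limits transcytosis) had differences of 0.070, 0.17, 0.036 and 0.011, none called. Slc2a1, made in astrocytes too, was the exception in size. Its 139, 131 and 128 CPM with SHNK lay below all of the 163, 163 and 140 CPM of stressed saline, a difference of -0.22 ± 0.088 (adjusted p = 0.142), and overlapped the non-stressed values.

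Of the surface and secreted genes, 4 of 5 lay above 0 in this comparison. None of them was called by edgeR, DESeq2 or limma voom, nor had any an unadjusted p under 0.05 (0 of 5). Over all genes, the tools called 6.41%, 12.8% and 13.1%, and 23.3% had such an unadjusted p by edgeR, so 0 of 5 does not set these genes apart. Emcn (endomucin, a mucin of capillary and venous endothelium) stood at 5.88, 7.30 and 4.76 CPM, 7.60, 6.32 and 7.29 CPM, and 8.87, 7.80 and 6.82 CPM in the 3 groups. Its SHNK and stressed saline values overlapped, with a log2 difference of 0.15 ± 0.17 (adjusted p = 0.659). Ly6c1 had a difference of 0.22, Itm2a 0.16, Egfl7 0.0053 and Podxl (podocalyxin, on the side facing the blood) -0.11.

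**Figure D3:**
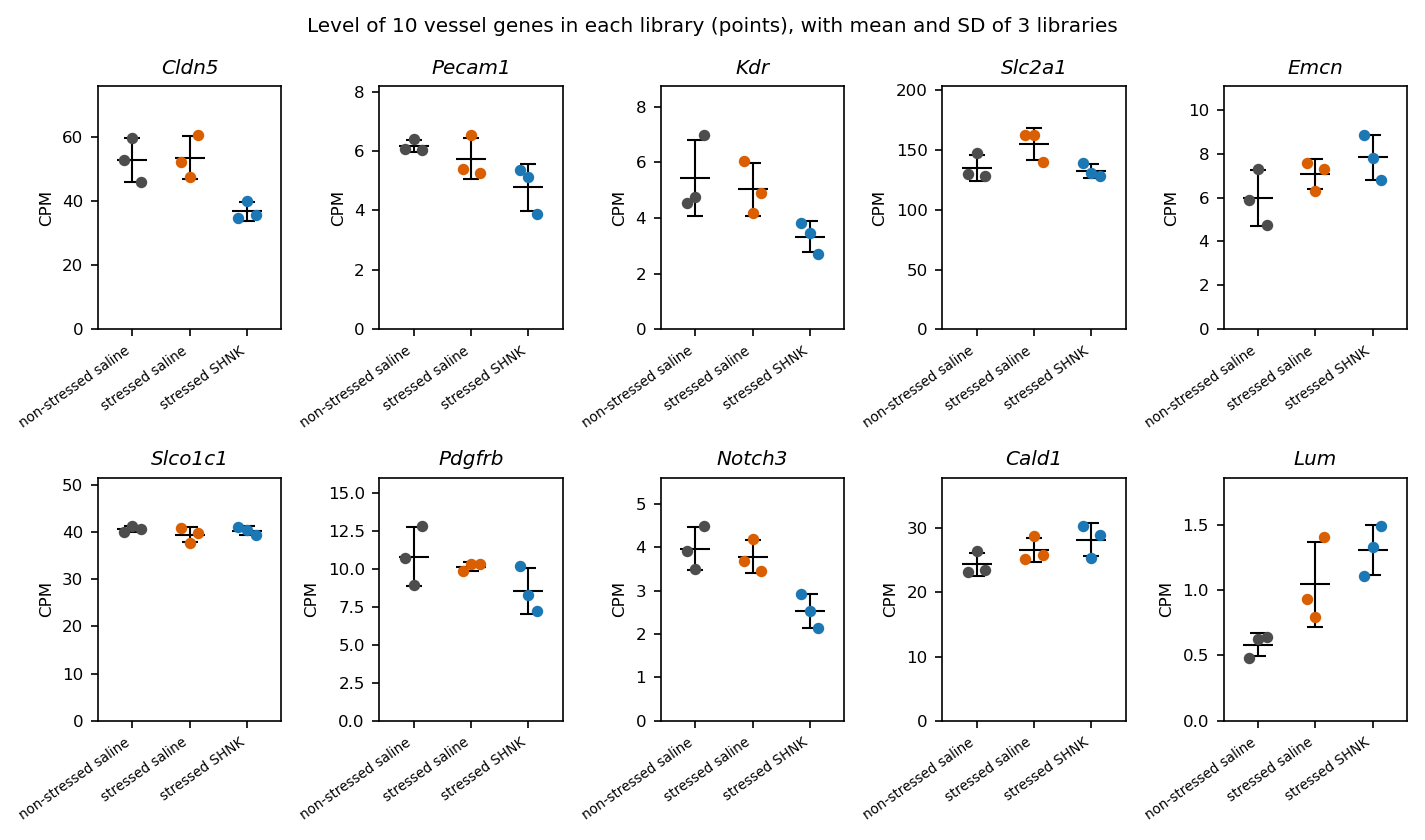
Level in CPM (y axis, from 0) of 10 vessel genes in each library (points) by group (x axis), with mean and SD of 3 libraries. The stressed SHNK points of Cldn5, Kdr and Notch3 lie below all points of the other groups, and those of Slco1c1 between 39.3 and 41.1 CPM lie among them.

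In the mural class, the pericyte genes split by gene. Notch3, the Notch receptor that keeps mural cells mature, stood at 3.92, 3.51 and 4.49 CPM in non-stressed saline, 3.69, 4.20 and 3.46 CPM in stressed saline and 2.92, 2.53 and 2.15 CPM with SHNK. The SHNK libraries were the 3 lowest with 79 to 139 counts, and the log2 difference from stressed saline was -0.58 ± 0.19 (interval -0.99 to -0.17). The adjusted p was 0.0883 by edgeR, 0.0443 by DESeq2 and 0.0324 by limma voom. After removal of the length and GC trend, the Notch3 difference was -0.25 (adjusted p = 0.665).

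Pdgfrb, the receptor through which platelet-derived growth factor recruits pericytes, stood at 10.7, 8.90 and 12.8 CPM, then 9.83, 10.3 and 10.3 CPM, then 10.2, 8.25 and 7.22 CPM. The ranges overlapped, and the difference of SHNK from stressed saline was -0.25 ± 0.16 (adjusted p = 0.377). Rgs5, a regulator of G protein signalling and an abundant pericyte gene, had a difference of 0.13 ± 0.15, and Vtn one of 0.070 ± 0.11.

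No contractile gene of smooth muscle was called (0 of 4 by edgeR, DESeq2 or limma voom, and 0 at an unadjusted p under 0.05). Over all genes, the tools called 6.41%, 12.8% and 13.1%, and 23.3% passed the unadjusted p by edgeR, so 0 of 4 does not set these genes apart. Cald1 (caldesmon, which binds actin and is made in many cell types) stood at 23.2, 26.4 and 23.4 CPM, 25.2, 28.8 and 25.8 CPM, and 30.3, 25.4 and 28.9 CPM, with a difference of SHNK from stressed saline of 0.082 ± 0.10. Acta2 (smooth muscle actin) and Myl9 (a myosin light chain) had differences of 0.12 and 0.0026. Tagln (transgelin) ran from 0.543 to 3.10 CPM over the 9 libraries, and its interval was wide, -1.32 to 0.93.

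For the matrix genes, Lum stood at 1.11, 1.33 and 1.49 CPM with SHNK, overlapping the stressed saline values, with a difference of 0.34 ± 0.28 (adjusted p = 0.526). Its neighbour on chromosome 10, Dcn (decorin, another small proteoglycan), had a difference of -0.29 ± 0.22. Col1a1, Col1a2 and Lama2 (a laminin chain of the perivascular basement membrane) had differences of -0.42, -0.16 and -0.34 at means of 0.524, 4.15 and 2.48 CPM with SHNK, none called.

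Stressed SHNK against non-stressed saline shares the SHNK libraries with the comparison above. edgeR called 1 of all genes (0.0055%) and 0 of the 34 vessel genes, while DESeq2 called 3 vessel genes, all lower, and limma voom called 0. These were Cldn5 (DESeq2 adjusted p = 0.00412), Kdr (0.0325) and Notch3 (0.0335). DESeq2 called 7.5% of the 13252 genes to which it gave an adjusted p here, and 5% lower, and limma voom called 0.0055% of all genes. Of the vessel genes, Cdh5, Tagln, Col1a1 and Lum got no adjusted p from DESeq2, so it could not call them. At an unadjusted p under 0.05, edgeR gave 7 of 34 against 18.3% of all genes. Cldn5, Pecam1, Tie1, Kdr and Notch3 were lower, as were 11% of all genes, and Emcn and Lum were higher. The groups did not overlap for 7 of 34, against 21.3% of all genes. Of the 7, 6 were lower, against 2096 lower of all 18194 genes. Podxl, at an adjusted p of 0.57, stood in this count in place of Emcn. The median log2 difference was -0.13 over the endothelial and 0.0066 over the mural genes, beside -0.0049 over all genes.

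Cldn5 had a log2 difference of -0.52 ± 0.115 from non-stressed saline (interval -0.77 to -0.27, edgeR adjusted p = 0.0776, and 0.00412 to 0.506 over the alternatives). Kdr had one of -0.70 ± 0.22 (adjusted p = 0.123), Tie1 one of -0.68 ± 0.24 (adjusted p = 0.152) and Notch3 one of -0.65 ± 0.19 (adjusted p = 0.113). Emcn had a difference of 0.40 ± 0.17 (adjusted p = 0.246), and its groups overlapped. Lum had the largest difference of the set, 1.17 ± 0.30 (interval 0.53 to 1.82, adjusted p = 0.0888), with 53 to 67 counts in the SHNK libraries against 20 to 26. Slco1c1 lay within -0.18 to 0.16, Slc2a1 within -0.22 to 0.16 and Vtn within -0.22 to 0.26.

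Members were also set against each other within each library, which removes what all genes of a class share. A trend on transcript GC content, described below, stays in a ratio of genes that differ in it. GC content was 60.5% for Cldn5, 43.1% for Slco1c1 and 50.2% for Pecam1, and 59.6% for Notch3 and 41.1% for Rgs5. The log2 ratio of Cldn5 to the sum of the other 20 endothelial genes was -3.61 ± 0.16 (SD, n = 3) in non-stressed saline, -3.59 ± 0.16 in stressed saline and -4.12 ± 0.098 in stressed SHNK. All 3 SHNK libraries lay below all others in this ratio (exact two-sided permutation p = 0.1 against either group, the smallest that 3 against 3 can give). Cldn5 over Slco1c1 was 0.37 ± 0.18, 0.44 ± 0.15 and -0.13 ± 0.12 in the same order, again without overlap between SHNK and the rest (exact p = 0.1). Notch3 over Rgs5 was -3.67 ± 0.47, -3.64 ± 0.21 and -4.35 ± 0.094 (exact p = 0.1 for SHNK against either group). Kdr over Flt1 was -2.19 ± 0.59, -2.19 ± 0.11 and -2.72 ± 0.25, where SHNK lay apart from stressed saline (exact p = 0.1) and overlapped non-stressed saline (exact p = 0.2). Cldn5 over Pecam1 overlapped between SHNK and stressed saline (exact p = 0.4). These ratios were 6 in number, counting Pdgfrb over Rgs5, and were chosen with the levels known, so they describe how the genes parted and are no further evidence for it.

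Transcript GC content and length went along with the SHNK differences, in vessel genes as in all genes. Across genes, which are not independent and share the libraries, Spearman's rho between GC content and the log2 difference of SHNK from stressed saline was -0.58 over the 34 vessel genes and -0.34 over 16724 genes. For SHNK against non-stressed saline it was -0.53 and -0.46, and for stress alone -0.018 and -0.12. With transcript length, rho over the 34 vessel genes was -0.31, -0.52 and -0.37 for these comparisons in the same order. Over the 16724 genes it was -0.16, -0.26 and -0.092. The longest transcript has 8016 bases for Notch3 and 1416 for Cldn5. The 9 vessel genes over 55% GC, Cldn5 (60.5%), Notch3 (59.6%), Col1a1, Egfl7, Tie1, Eng, Myl9, Col1a2 and Vtn, had a median difference of SHNK from stressed saline of -0.21, beside -0.15 for all genes over 55%. Kdr, at 49.4% GC, is not among them. The 8 vessel genes up to 45%, which include Slco1c1 (43.1%), Emcn and Lum, had a median of 0.10, beside 0.11 for all such genes. The trend removal took out length and GC content together. What part of the Cldn5 and Notch3 differences goes with either of them, beyond the values after trend removal, was not tested.

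**Figure D4:**
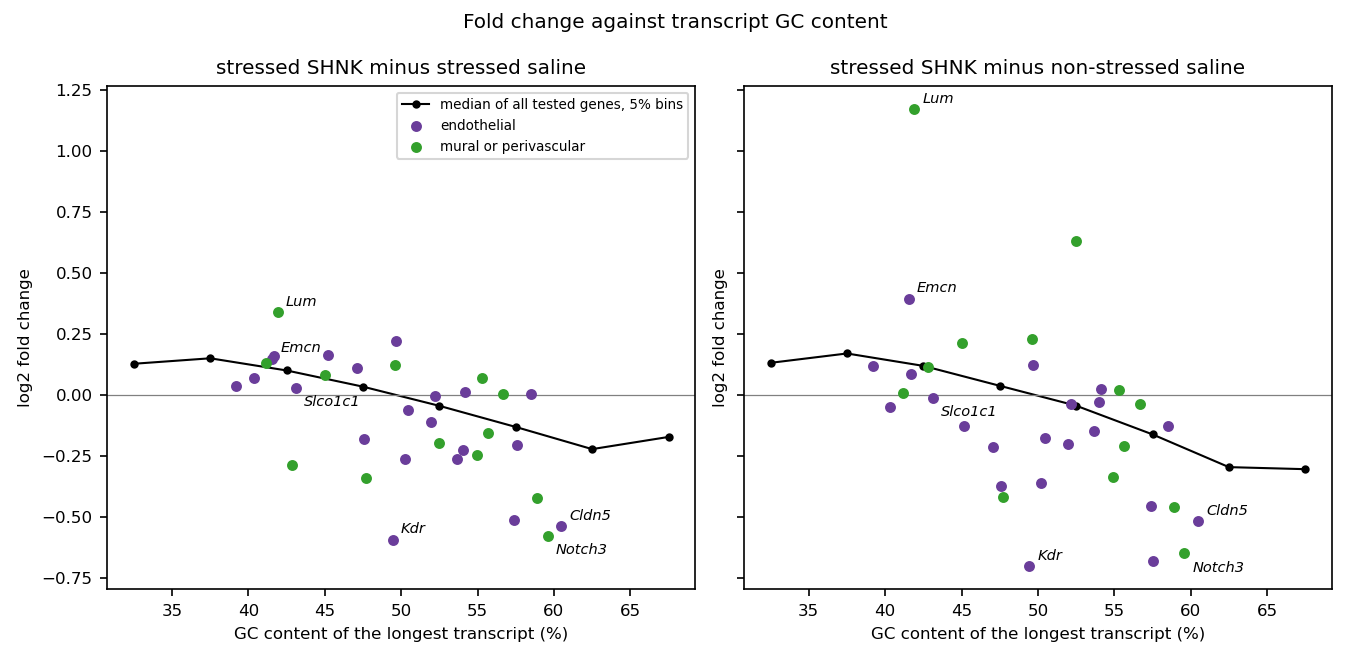
Log2 fold change (y axis) of SHNK against stressed saline (left) and non-stressed saline (right) over the GC content of each gene's longest transcript (x axis, %); purple and green points are endothelial and mural genes, and black points are medians of all tested genes in 5% steps. Both the points and the black line slope down, and Cldn5, Notch3 and Kdr lie below the line.

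The rest of vessel biology was covered by 12 further lists of 201 genes, of which 184 were tested. With stress alone, 4 were called higher and 0 lower (unadjusted 15 and 7; DESeq2 7 and 0, limma voom 3 and 0). Over all tested genes, the shares in either direction were 1.17%, 9.45%, 2.65% and 0.561% in the same order. With SHNK against stressed saline, 14 were called lower and 2 higher, so 16 of the 184. Of all genes, edgeR called 6.41% in either direction and 3.96% lower. DESeq2 called 22 lower and 6 higher and limma voom 23 lower and 5 higher, where these tools called 7.18% and 7.68% of all genes lower. At an unadjusted p under 0.05, 32 were lower and 8 higher, beside 12.8% of all genes lower. Their median log2 difference was -0.17 in that comparison. Against non-stressed saline, 0 were called by edgeR (unadjusted 10 higher and 35 lower) and 0 by limma voom, while DESeq2 called 1 higher and 14 lower. Of all genes, 11% were lower at an unadjusted p under 0.05, and DESeq2 called 5% lower. The lists were chosen with earlier results of these data known, and some of their called genes are made by neurons or astrocytes as well. Their counts are therefore no evidence of an excess among vessel genes.

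Among VEGF and angiopoietin genes (14 tested), the co-receptors Nrp1 and Nrp2 fell with SHNK. Nrp1, which presents VEGF to Kdr, fell to 12.2 ± 1.11 CPM (SD, n = 3) from 18.4 ± 1.31 CPM in stressed saline, which was -0.59 ± 0.12 on the log2 scale (edgeR adjusted p = 0.0119). Nrp2, which neurons make as well, was at 7.12 CPM in non-stressed saline, rose to 19.2 CPM with stress (1.43 ± 0.26, adjusted p = 0.0145) and fell to 6.08 CPM with SHNK (-1.65 ± 0.26, adjusted p = 0.00452). The Nrp1 call was lost without stressed SHNK replicate 2 or 3 (adjusted p of at most 0.0722). The Nrp2 fall stood in all 9 fits that leave out 1 library, and its rise was lost in 4 of them, leaving out replicate 1 or 2 of non-stressed saline or replicate 2 or 3 of stressed saline.

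Of the Wnt pathway that builds the barrier (16 tested), the ligand Wnt7a fell by 0.52 and the transcription factor Lef1, also a marker of thalamic neurons, rose by 0.39 with SHNK on the log2 scale. Of the other barrier transporters (18 tested), the amino acid transporter Slc38a3 fell by 0.48 and the lipoprotein receptor Lrp8 by 0.71. Of other endothelial genes (25 tested), Tm4sf1 fell by 0.50 and the sphingosine receptor S1pr1 by 0.34, and Tm4sf1 had risen with stress by 0.68. Of the activation genes (6 tested), the adhesion molecule Icam1 fell by 0.86 with SHNK, at a low level of 1.40 CPM against 2.54 CPM in stressed saline. The plasminogen activator Plat fell by 0.48 with SHNK and had risen with stress by 0.39. Slc38a3 and S1pr1 are made by astrocytes as well, and Lrp8 and Plat by neurons. Leaving out 1 library lost the SHNK call of Slc38a3 and Plat in 1 of 9 fits each (without stressed SHNK replicate 2), of Lrp8 in 2, of Tm4sf1 in 3, of S1pr1 in 4, of Wnt7a in 5, of Lef1 in 6 and of Icam1 in 7. Stressed SHNK replicates 2 and 3 each lost the calls of Lrp8, Tm4sf1, S1pr1, Wnt7a, Lef1 and Icam1. The stress call was lost in 2 of 9 fits for Tm4sf1 (non-stressed saline replicate 1, stressed saline replicate 2) and in 7 for Plat.

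Of further pericyte genes (16 tested), the endothelin receptor Ednra fell by 0.83 with SHNK, at a low level of 2.06 CPM against 3.66 CPM in stressed saline. Of further smooth muscle genes (15 tested), Cnn1 (calponin) fell by 1.78, at a low level of 0.760 CPM with SHNK against 2.62 CPM in stressed saline. Sncg (gamma-synuclein, abundant in some neurons) fell by 1.84, and Mylk (myosin light chain kinase) rose by 0.48. Sncg had risen with stress by 1.80. Of fibroblast genes (16 tested), Col5a1 fell by 0.98, to 2.47 CPM from 4.89 CPM in stressed saline. Of Notch, TGF-beta and PDGF genes (17 tested), Notch1 fell by 0.69. The Sncg fall stood in all 9 fits that leave out 1 library; the calls were lost in 2 of 9 for Cnn1, 4 for Notch1, 5 each for Ednra and Col5a1 and 8 for Mylk, and in 2 for the Sncg rise. Stressed SHNK replicates 2 and 3 each lost the calls of Cnn1, Notch1, Ednra, Col5a1 and Mylk. After the length and GC trend was removed, Notch1 (adjusted p = 0.231), Col5a1 (0.354), Wnt7a (0.21), Icam1 (0.186) and Lrp8 (0.0541) were no longer called for SHNK, nor Plat (0.0712) for stress. Their log2 differences were then -0.40, -0.68, -0.32, -0.69, -0.53 and 0.32 in this order. With the replicate number as a block, the calls of Icam1 (adjusted p = 0.0599), Ednra (0.0526) and Mylk (0.0721) for SHNK and of Plat for stress (0.0679) were lost, and limma voom gave the last 0.0502.

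Of 18 basement membrane genes, 0 were called with SHNK against stressed saline by edgeR, with 6 lower at an unadjusted p under 0.05 and a median of -0.30. DESeq2 called 3 and limma voom 4, all lower. The shares of all genes lower were 12.8%, 7.18% and 7.68% in the same order. Of 12 further junction genes, 0 were called by edgeR (unadjusted 2 lower, DESeq2 1 and limma voom 1 lower). Of 12 arterial and venous genes, 0 were called by edgeR (unadjusted 1 higher and 1 lower, DESeq2 the same, limma voom 1 lower).

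Markers of other cells moved beside these results. Over all tested genes, edgeR called 1.17% with stress and 6.41% with SHNK against stressed saline, 3.96% lower. At an unadjusted p under 0.05 these shares were 9.45% and 23.3%, with 12.8% lower for SHNK. DESeq2 called 2.65% and 12.8%, and limma voom 0.561% and 13.1%, in the same order. A count of 0 in a short list does not show that its cells held steady. With stress, 10 of 12 habenula, 12 of 20 ependyma and 2 of 17 astrocyte genes rose, and with SHNK against stressed saline 11 of 12, 10 of 20 and 9 of 17 fell. Of 16 choroid plexus genes, 3 rose with stress and 3 fell with SHNK. For SHNK against non-stressed saline, edgeR and limma voom called 0 genes of the habenula, ependyma and astrocyte lists. DESeq2 called 6 habenula and 8 astrocyte genes lower and 2 ependyma genes higher, beside 7.5% of all genes. At an unadjusted p under 0.05, edgeR gave 6 habenula and 11 astrocyte genes lower and 5 ependyma genes higher, beside 18.3% of all genes. With SHNK, 7 of 13 genes of thalamic neurons (median log2 difference 0.34) and 3 of 13 genes of neurons at large (median 0.27) rose against stressed saline, and with stress 0 of either list were called by edgeR (unadjusted 4 and 1 lower; DESeq2 1 and 0 lower, limma voom 0). Of 16 microglia, 15 oligodendrocyte and 4 border macrophage genes, 0 were called by edgeR, DESeq2 or limma voom in either comparison. At an unadjusted p under 0.05, edgeR gave 0, 1 and 1 of these with stress, all higher, and with SHNK 1 microglia gene higher and 4 oligodendrocyte genes lower. Summed astrocyte levels were 6323 to 6607, 5706 to 7237 and 4997 to 5336 CPM in the 3 groups, and those of ependyma 130 to 152, 247 to 366 and 142 to 212 CPM. Of 6 blood genes, the 4 haemoglobins rose with SHNK against stressed saline, and the list summed to 498 to 631, 373 to 517 and 587 to 677 CPM. Blood genes were not called with stress by edgeR, DESeq2 or limma voom (0 of 6; unadjusted 4 lower). The part of these cells in the vessel differences, and in those of Nrp1, Nrp2, Wnt7a, Sncg, Slc38a3, S1pr1, Lrp8 and Plat in particular, was not tested.

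**Figure D5:**
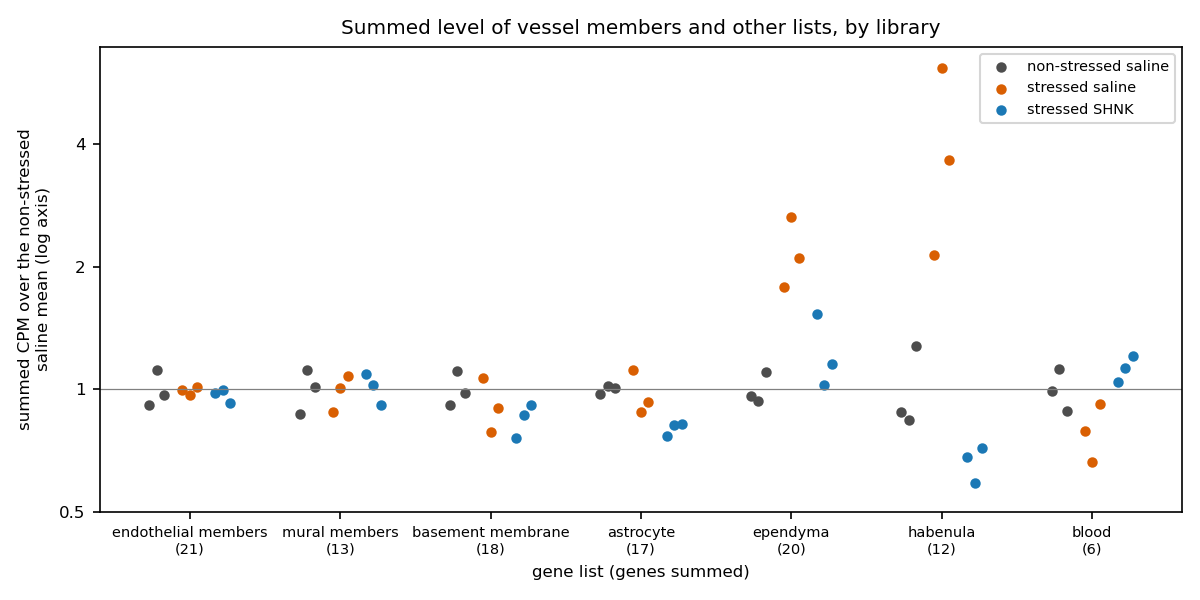
Summed CPM of 7 gene lists (x axis, number of genes in parentheses) in each library, divided by the mean of the non-stressed saline libraries (y axis, log scale); colours mark the groups. The endothelial and mural sums of all libraries stay near 1, while habenula and ependyma sums are high in the 3 stressed saline libraries. The gene Sparc makes up 92.8% of the basement membrane sum, so those points mainly follow that gene.

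Some members have close relatives in the genome between which the authors' counting could split reads: Ly6c1 with Ly6c2, Abcb1a with Abcb1b, Slco1a4 with its gene family and Acta2 with other actins. Their counts are uncertain for that reason, and how many reads this touches was not tested. Tagln shares 971 exonic bases with genes on the opposite strand, Notch3 488, Abcb1a 242, Lama2 154, Slc2a1 105 and Eng 61, and Egfl7 264 with a gene on its own strand. No source used here says whether counting used strand. The remaining members had mean levels over the 9 libraries of 4.43 RPKM for Acta2, 3.79 for Dcn, 2.94 for Abcg2, 2.69 for Emcn, 1.52 for Abcb1a, 1.35 for Pecam1, 1.25 for Eng, 0.954 for Tagln, 0.850 for Col1a2, 0.775 for Podxl, 0.609 for Ptprb, 0.400 for Lum and 0.304 for Lama2.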

How the data were processed

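Total RNA (100 ng) of 9 libraries was sequenced. The authors deposited whole-number read counts per gene symbol for 18956 genes, with none at 0. Trimmomatic 0.38, HISAT2 and StringTie, on GRCm38, are named per the submitters' processing notes. The counting step is not given in the sources used here.

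In R 4.3.3, edgeR 4.0.16 fitted the 3 groups in 1 quasi-likelihood model after TMM scaling and filterByExpr (minimum count 10, minimum total 15), which kept 18194 genes and dropped 762. P-values were adjusted by Benjamini-Hochberg over the tested genes, and intervals are 95%. DESeq2 1.42.0, limma 3.58.1, other scalings and filters, a replicate block and leaving out each library were alternatives. Removing a spline on transcript length and GC content (longest GENCODE M21 transcript) was chosen after seeing the data. RPKM used merged exon length. The fits were tested on simulated data.

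The members and lists were chosen with earlier results of these data known. The text names every member, gives values by library for called members, for Cldn5, Pecam1 and Pdgfrb, and for the smallest p of each role, and names the called genes of other vessel lists. Lists of other cell types are given as counts, a departure from that rule, and Slco1c1 and the ratios were chosen after their values were seen. No 2 libraries of the same group were duplicates.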

Additional observations from a re-analysis of the deposited data

How the results depend on the processing

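The alternatives included looser cuts on the main fit, an adjusted p of 0.1 and an unadjusted p of 0.05. Of the member values under all alternatives, 1909 kept their direction and their side of the cut applied. Another 22 passed it newly, 3 no longer passed it and 103 turned in direction. At an adjusted p under 0.05, Notch3 passed newly by DESeq2 and limma voom for SHNK against stressed saline. Against non-stressed saline, Cldn5, Kdr and Notch3 did so by DESeq2. The rest of the 22 passed only a looser cut. All that turned belonged to members not called, at p of 0.25 or more and a size of at most 0.33. The 3 lost values are those of Cldn5 in SHNK against stressed saline. The fit with the replicate number as a replicate block called 177, 878 and 6 genes for stress alone and for SHNK set against the stressed and the non-stressed saline group, and kept the Cldn5 call (adjusted p = 0.0262). Libraries of the same number did not pair: their deviations correlated between -0.100 and 0.106 over 9 pairs, 1 of them above 0.1, and 4 of 9 libraries correlated best with their own number.

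Genes called for stress alone numbered 472 by DESeq2, 102 by limma voom, 370 at an adjusted p of 0.1, 1720 at an unadjusted p of 0.05 and 40 to 306 with 1 library left out. Those for SHNK against stressed saline numbered 2005, 2377, 2182 and 4247 in the same order, 560 with the length and GC trend removed and 176 to 1385 with 1 library left out. Those for SHNK against non-stressed saline numbered 994 by DESeq2, 520 at an adjusted p of 0.1, 3338 at an unadjusted p of 0.05, 7 with the trend removed, 9 with only the 2 compared groups, 0 with upper-quartile scaling, without a filter or with the filter of 1 CPM, and 0 to 749 with 1 library left out (749 without non-stressed saline replicate 2). Genes that differed among the 3 groups numbered 2102 by DESeq2, 1824 by limma voom, 1802 at an adjusted p of 0.1, 4000 at an unadjusted p of 0.05 and 187 to 1492 with 1 library left out. The cause was not tested.

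For stress alone, 1 endothelial and 1 mural gene passed an unadjusted p of 0.05, beside 9.45% of all genes. The endothelial median ran from -0.12 to 0.045 with 1 library left out. For SHNK against stressed saline, 5 endothelial genes and 1 mural gene passed an unadjusted p of 0.05, all lower. Over all genes, 23.3% passed it in either direction and 12.8% lower. There, 0 endothelial genes were called with the trend removed, 0 to 1 with 1 library left out, and 1 mural gene by DESeq2, by limma voom and at an adjusted p of 0.1. DESeq2 called 12.8% and limma voom 13.1% of all genes there, and the counts of all genes under the other settings are given above. The mural median was 0.020 by limma voom, 0.075 with the trend removed and -0.19 to 0.064 with 1 library left out. For SHNK against non-stressed saline, DESeq2 called 2 endothelial genes and 1 mural gene, an adjusted p of 0.1 gave 1 and 1, and an unadjusted p of 0.05 gave 5 and 2. Over all genes, DESeq2 called 7.5%, and 18.3% passed the unadjusted p. The endothelial median there ran from -0.21 to -0.069 with 1 library left out.

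For stress alone, the turned values were Cldn5 -0.0022 and Mfsd2a -0.042 with the length and GC trend removed, Cdh5 0.034 by limma voom. With 1 library left out, the values ran for Cldn5 from -0.079 to 0.11, for Cdh5 from -0.27 to 0.21, for Flt1 from -0.24 to 0.070, for Kdr from -0.27 to 0.12, for Eng from -0.11 to 0.36, for Ly6c1 from -0.24 to 0.11, for Itm2a from -0.17 to 0.069, for Ptprb from -0.32 to 0.065, for Mfsd2a from -0.13 to 0.088, for Pdgfrb from -0.21 to 0.049, for Rgs5 from -0.27 to 0.080, for Vtn from -0.16 to 0.041, for Acta2 from -0.015 to 0.23, for Myl9 from -0.19 to 0.079, for Notch3 from -0.15 to 0.026, for Col1a1 from -0.25 to 0.27, for Col1a2 from -0.23 to 0.14 and for Lama2 from -0.32 to 0.19. For SHNK against stressed saline, the turned values were Cdh5 0.0017 by DESeq2, Cdh5 0.12 and Tagln 0.28 by limma voom, Cdh5 0.0020 with DESeq2 size factors in edgeR, Cdh5 0.14, Tie1 0.055, Flt1 0.071, Slco1c1 -0.010, Abcg2 -0.029, Itm2a -0.0021, Podxl 0.041 and Col1a2 0.078 with the length and GC trend removed, Egfl7 -0.00081 and Myl9 -0.0027 with upper-quartile scaling. With 1 library left out, the values ran for Cdh5 from -0.24 to 0.23, for Tie1 from -0.40 to 0.042, for Flt1 from -0.13 to 0.042, for Slco1c1 from -0.00084 to 0.056, for Abcg2 from -0.015 to 0.091, for Egfl7 from -0.074 to 0.085, for Mfsd2a from -0.063 to 0.15, for Podxl from -0.18 to 0.0051, for Vtn from -0.020 to 0.15, for Acta2 from -0.13 to 0.34, for Tagln from -0.77 to 0.33, for Myl9 from -0.073 to 0.15 and for Col1a2 from -0.48 to 0.021. For SHNK against non-stressed saline, the turned values were Cdh5 0.16 and Myl9 0.024 by limma voom, Cdh5 0.10, Ly6c1 -0.040, Slc2a1 0.12, Itm2a -0.16, Rgs5 -0.086, Myl9 0.0029, Col1a2 0.054 and Dcn -0.11 with the length and GC trend removed, Slco1c1 0.0044 with upper-quartile scaling, Slco1c1 0.0025 with the 1 CPM filter in 3 libraries. With 1 library left out, the values ran for Cdh5 from -0.27 to 0.20, for Flt1 from -0.30 to 0.0074, for Ly6c1 from -0.021 to 0.33, for Slco1a4 from -0.095 to 0.010, for Slco1c1 from -0.021 to 0.0060, for Slc2a1 from -0.066 to 0.039, for Itm2a from -0.014 to 0.23, for Mfsd2a from -0.011 to 0.058, for Rgs5 from -0.14 to 0.21, for Vtn from -0.094 to 0.089, for Acta2 from -0.024 to 0.45, for Myl9 from -0.10 to 0.082 and for Dcn from -0.11 to 0.28. Counts of 12 to 67 per library limit Cdh5, Col1a1 and Lum.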
